A study of Homo sapiens with 42 samples.

Results

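The 32 genes described here encode parts of the lysosome and of the autophagy machinery, and are grouped around the transcription factor TFEB. They were taken by symbol from the gene column of the count table, which held 58884 rows. The rule of choice is the symbol alone, but the list was drawn up with earlier results of these data known. All 32 were found, and all 32 were among the 12939 genes kept for testing, which had a mean of at least 1 count and of at least 1 CPM over all libraries. CPM is a gene's count scaled to a common library total. By role they comprise 2 transcription factors (TFEB and TFE3), 6 autophagy genes, 7 lysosomal proteases, 6 enzymes or cofactors that act on glycans and lipids, 6 membrane and transport proteins, and 5 subunits of the vacuolar proton pump (V-ATPase).

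Messages were measured by RNA-seq in MOLM-13, 1 human acute myeloid leukemia (AML) cell line that carries FLT3-ITD, an activating internal tandem duplication in the receptor kinase FLT3, so all groups share this line and its mutation. Cultures were kept for 12 hours in RPMI medium with vehicle (DMSO), with 3 nM quizartinib, which inhibits FLT3, or with quizartinib and 10 nM everolimus together (combo). Others were kept in hBMSC-CM with vehicle, quizartinib, everolimus or combo at the same doses. Everolimus inhibits mTORC1, and hBMSC-CM is equal parts of fresh medium and medium conditioned by HS-5, a human bone marrow stromal line. Each of the 7 conditions had 3 cultures, and each of the 21 cultures gave an input library, made from total poly(A) RNA, and a heavy polysome library, made from the gradient fractions in which messages carry several ribosomes. The labels number the replicates without saying how they were grown apart, so p-values measure the spread between these samples. The replicate number was taken to join the input and polysome library of a culture. With no spike-in, each level is relative to the other messages of its library.

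TFEB and its relative TFE3 are helix-loop-helix leucine zipper factors that bind E-box sequences with the core CACGTG in the promoters of many lysosomal and autophagy genes. When mTORC1 is active at the lysosomal surface it phosphorylates both factors and holds them in the cytoplasm, and when its activity falls they enter the nucleus. Autophagosomes carry cytoplasmic material to the lysosome, where the V-ATPase acidifies the lumen and acid hydrolases break proteins, glycans and lipids down. Cells of the monocyte lineage are rich in lysosomes.

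Promoter sequence was at hand for 23 of the 32 genes (RefSeq, GRCh38.p14, 250 bases before to 50 bases after each start), and 8 of these 23 held CACGTG. The stretches around the motif are shown because this is the letter sequence that the network's factors bind, and because its presence can be set beside the changes below. Each is written 5′ to 3′ on the strand of its gene and ends 10 bases into the transcript, with CACGTG in capitals.
LAMP1 (chr13:113297039-113297248, plus strand): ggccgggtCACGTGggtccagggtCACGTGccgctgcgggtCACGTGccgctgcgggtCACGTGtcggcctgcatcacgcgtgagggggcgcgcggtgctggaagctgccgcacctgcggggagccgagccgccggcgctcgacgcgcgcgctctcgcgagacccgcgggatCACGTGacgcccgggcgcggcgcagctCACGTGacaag
CTSA (chr20:45891235-45891344, plus strand): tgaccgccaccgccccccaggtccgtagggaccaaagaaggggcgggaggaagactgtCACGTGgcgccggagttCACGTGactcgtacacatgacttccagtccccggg
CTSD (chr11:1763918-1764027, minus strand): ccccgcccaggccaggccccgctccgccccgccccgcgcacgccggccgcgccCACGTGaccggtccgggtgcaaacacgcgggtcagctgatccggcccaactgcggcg
GAA (chr17:80101481-80101590, plus strand): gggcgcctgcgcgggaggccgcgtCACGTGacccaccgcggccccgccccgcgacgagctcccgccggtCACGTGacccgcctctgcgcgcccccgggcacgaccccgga
NEU1 (chr6:31862812-31862961, minus strand): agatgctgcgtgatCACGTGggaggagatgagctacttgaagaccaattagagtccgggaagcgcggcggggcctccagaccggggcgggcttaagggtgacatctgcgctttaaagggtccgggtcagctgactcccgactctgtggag
CLN3 (chr16:28492065-28492174, minus strand): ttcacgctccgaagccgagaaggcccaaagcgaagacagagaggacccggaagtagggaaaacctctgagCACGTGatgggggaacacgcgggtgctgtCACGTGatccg
MCOLN1 (chr19:7522524-7522633, plus strand): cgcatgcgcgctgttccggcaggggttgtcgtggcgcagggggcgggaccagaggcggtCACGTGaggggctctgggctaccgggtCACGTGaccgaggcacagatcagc
ATP6V0D1 (chr16:67481148-67481257, minus strand): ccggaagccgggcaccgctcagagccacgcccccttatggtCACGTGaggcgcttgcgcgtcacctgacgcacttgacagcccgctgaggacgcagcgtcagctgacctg
LAMP1 held 6 copies, CTSA, GAA, CLN3 and MCOLN1 held 2 copies, and CTSD, NEU1 and ATP6V0D1 held 1. In LAMP1 the copy farthest from the start began at position -192 and the nearest at position -1, where positions count from the first transcribed base.

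CACGTG, which reads the same on both strands, was present in 34.8% of the members' promoters, against 7.43% of all 27305 promoters of the same length, members included. Among other lysosomal, autophagy and TFEB-regulating genes listed for comparison, 17 of 87 promoters (19.5%) held it. The longer form TCACGTGA, which contains the core, was present in 6 of 23 members (26.1%) and in 1.04% of all promoters. Genes of this network were grouped in part by this motif, so these shares describe the list and are not a finding of the experiment. UVRAG, LAMP2, CTSB, CTSS, HEXA, PSAP, ATP6V1A, ATP6V1B2 and ATP6V1H had no promoter entry.

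Depth ran from 19439370 to 37161265 counts in the input libraries and from 21459383 to 38786394 counts in those of heavy polysomes, and mitochondrially encoded messages held 3.17% to 10.2% of input but 0.0734% to 0.713% of polysome counts. All 5 AML markers fixed for the check (CD33, FLT3, MPO, PTPRC, SPI1) were counted in all libraries. Of 10 stromal markers only COL1A1 passed the filter on low counts, and COL3A1, LUM and POSTN were at 0 in all 42 libraries. The 3 hBMSC-CM everolimus cultures stood apart in their small spread. The median SD of log2 CPM over the 32 genes was 0.047 in their input and 0.0907 in their polysome libraries, against 0.138 to 0.295 and 0.322 to 0.461 in the 6 other conditions. Replicate 3 also stood apart in heavy polysomes, as described there. Counts that rest on these libraries are given with and without them.

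In input RNA of RPMI vehicle cultures, the message levels per length spanned a wide range. Per kilobase of the canonical transcript, LAMP1, the most abundant lysosomal membrane glycoprotein, was highest at 128 ± 2.45 CPM (SD, n = 3, as for the levels that follow). The aspartic protease gene CTSD followed at 105 ± 37.2 CPM per kilobase and PSAP, the precursor of the saposins that help hydrolases reach their lipids, at 68.3 ± 17.5 CPM per kilobase. The replicate values of CTSD ran from 62.4 to 133 and those of PSAP from 56.3 to 88.4 CPM per kilobase, so the order of these neighbours is not larger than their spread. TFEB stood at 14.4 ± 2.39 and TFE3 at 10.3 ± 0.532 CPM per kilobase, in places 17 and 22 of the 32. The lowest were GABARAPL1 at 3.40 ± 0.248, NPC1 at 2.12 ± 0.00553, WIPI1 at 1.99 ± 0.189 and CLN3 at 0.363 ± 0.130 CPM per kilobase. CLN3, a lysosomal membrane protein gene, shares exon positions with another gene on its own strand, so its level is uncertain.

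Counted together, the 32 genes took 2384 ± 167 CPM of input in RPMI vehicle and 3992 ± 466 CPM in RPMI quizartinib. The sum was 3888 ± 335 CPM in RPMI combo, 2980 ± 369 in hBMSC-CM vehicle, 4471 ± 358 in hBMSC-CM quizartinib, 3600 ± 13.6 in hBMSC-CM everolimus and 4578 ± 482 in hBMSC-CM combo. The lowest quizartinib culture in RPMI (3595 CPM) lay above the highest vehicle culture (2554 CPM), and in hBMSC-CM the lowest quizartinib culture (4126 CPM) lay above the highest vehicle culture (3387 CPM). In bulk RNA, a change in the make-up of the surviving cells and a change in RNA per cell cannot be told apart, and this holds for every level given here.

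Inhibition of FLT3 in RPMI came with higher input levels across the network. Of the 32 genes, 17 rose under quizartinib against vehicle and 0 fell (edgeR's quasi-likelihood test, adjusted p under 0.05 by the Benjamini-Hochberg method over the 12939 genes), while 34.6% of all genes were called in this comparison and 16.6% were called higher. At an unadjusted p under 0.05, 22 differed, all of them higher, where 5567 of all 12939 genes differed in either direction. DESeq2 called 20 and limma voom 17. For these tools, for other scalings and filters, and for fits with cultures left out, most counts are given without the share of all genes. Such counts do not tell a change in the members from a change in all genes. The median log2 change was 0.81 over the 32 and 0.0799 over all genes tested. Replicate values did not overlap in 23 of the 32, all higher, against 28.5% of all genes that were higher without overlap. Both transcription factors, all 6 autophagy genes, 4 of 7 proteases, 2 of 6 glycan and lipid enzymes, 2 of 6 membrane and transport genes and 1 of 5 V-ATPase genes rose. With the replicate number as a block within each fraction, 25 of the 32 were called, all higher, where 48.9% of all genes were called. The stromal marker COL1A1 rose with the drug in both media (log2 change 4.43 in RPMI and 4.24 in hBMSC-CM), and the summed stromal markers stood at 9.61 to 41.5 CPM in RPMI quizartinib input against 0.8 to 4.76 CPM in vehicle. Its part in these results was not tested.

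**Figure D1:**
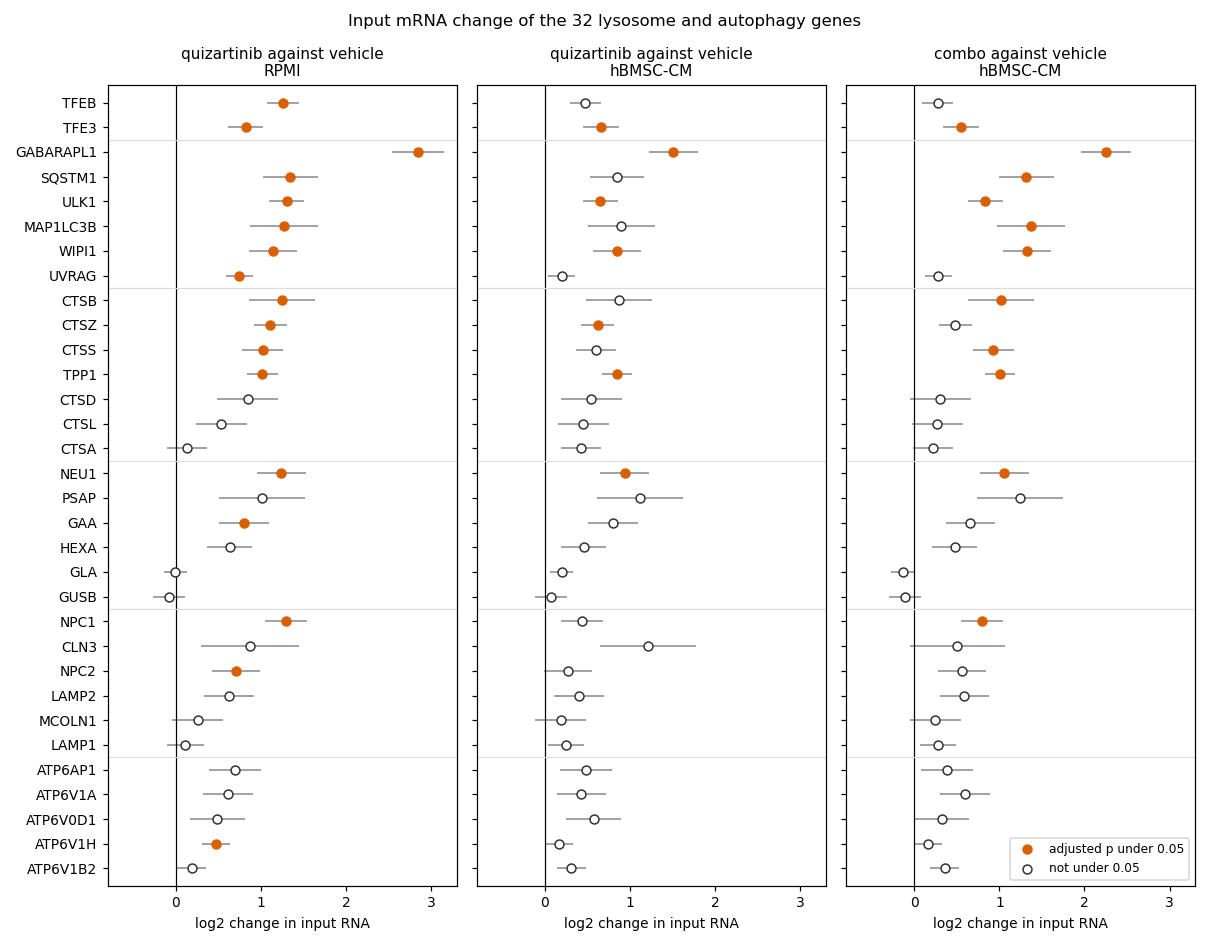
Log2 change in input RNA of the 32 genes (rows, grouped by role) for quizartinib against vehicle in RPMI, quizartinib against vehicle in hBMSC-CM, and combo against vehicle in hBMSC-CM. Points are edgeR estimates of the fit without a block and bars are 1 SE. Filled points have an adjusted p under 0.05, which holds for 17, 7 and 11 genes. GABARAPL1 lies farthest to the right in each panel.

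The autophagy gene GABARAPL1, an ATG8-family protein that is joined to autophagosome membranes, changed most. Its input levels were 5.91, 6.84 and 6.46 CPM in the RPMI vehicle cultures and 37.6, 51.8 and 48.4 CPM in the RPMI quizartinib cultures. Every treated culture lay far above every vehicle culture. The log2 change was 2.84 with SE 0.305 (edgeR adjusted p = 4.11e-09). GABARAPL1 (ENSG00000139112) lies on chromosome 12, 10212458 to 10223128, plus strand (GENCODE v44, GRCh38), and shares 329 exon bases with an antisense gene. The use of strand in counting is not given in the sources used here, so part of its counts may belong to that gene.

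SQSTM1, the receptor p62 that brings ubiquitinated cargo to autophagosomes, was at 95.01, 154 and 133 CPM under vehicle and at 267, 416 and 285 CPM under quizartinib, without overlap. Its log2 change was 1.34 (SE 0.324, edgeR adjusted p = 0.00130). ULK1, the kinase that starts autophagy and is itself held back by mTORC1, was at 33.7, 37.3 and 44.2 CPM under vehicle. Under quizartinib its level was 82.3, 111 and 90.3 CPM, again above all vehicle cultures, with a log2 change of 1.30 (SE 0.208, edgeR adjusted p = 6.19e-06). MAP1LC3B, which encodes LC3B, the usual marker of autophagosomes, rose by a log2 change of 1.27, WIPI1, a phosphoinositide-binding protein of the forming autophagosome, by 1.14, and UVRAG, a subunit of a lipid kinase complex that acts in autophagy, by 0.75. SQSTM1 and MAP1LC3B each have 1 pseudogene named after them, with which reads could have been shared, and SQSTM1, MAP1LC3B, WIPI1 and UVRAG overlap exons of genes on the opposite strand.

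The messages of the transcription factors rose as well. TFEB (ENSG00000112561, chromosome 6, 41683978 to 41736259, minus strand) was at 27.3, 36.2 and 37.5 CPM in RPMI vehicle and at 68.9, 80.5 and 92.0 CPM in RPMI quizartinib. The groups did not overlap, and the log2 change was 1.26 (SE 0.187, edgeR adjusted p = 1.87e-06). TFE3 (ENSG00000068323, chromosome X, 49028726 to 49043410, minus strand) was at 32.3, 33.4 and 35.8 CPM under vehicle and at 55.7, 59.5 and 63.9 CPM under quizartinib, a log2 change of 0.82 (SE 0.209, edgeR adjusted p = 0.00227). These are message levels, and neither the protein nor its place in the cell was measured here.

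**Figure D2:**
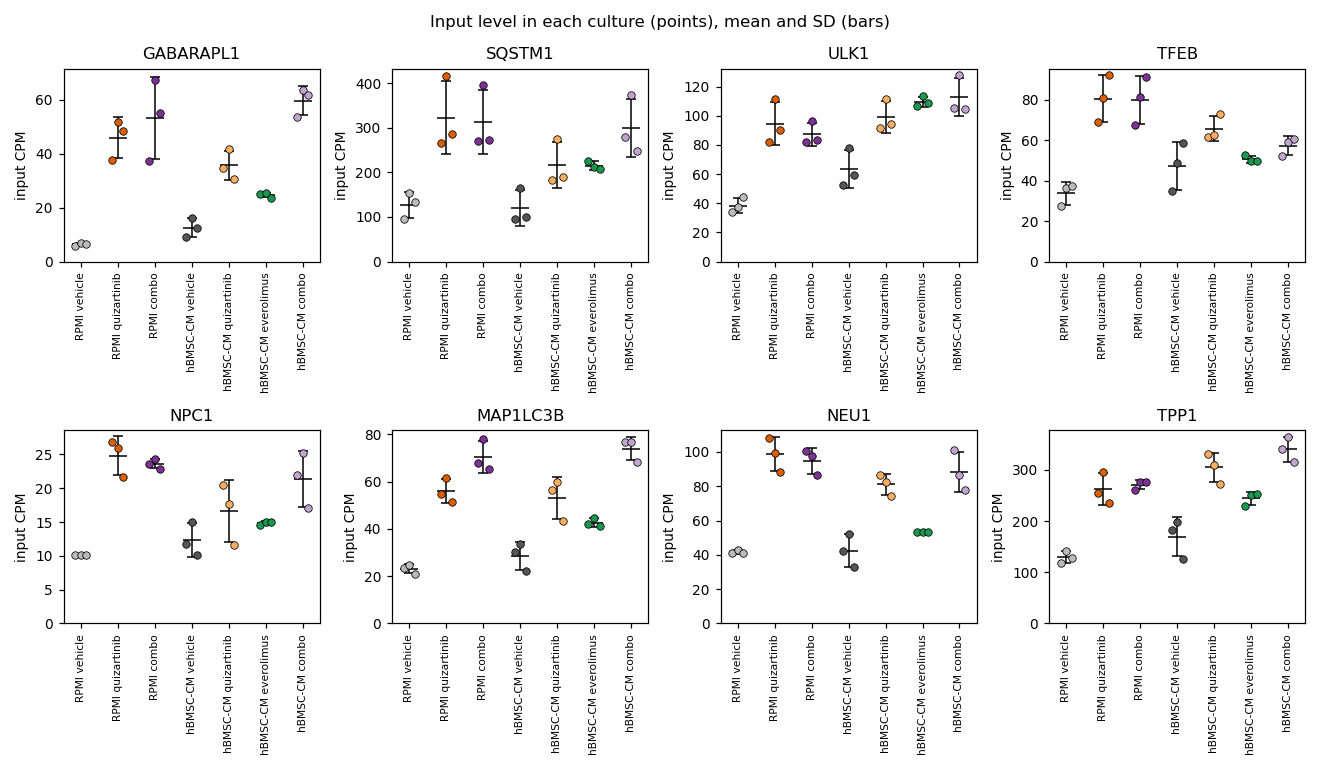
Input level (CPM, linear axis from 0) of GABARAPL1, SQSTM1, ULK1, TFEB, NPC1, MAP1LC3B, NEU1 and TPP1 in each of the 21 cultures, by condition. Points are cultures and bars are the mean and SD of 3. In RPMI all quizartinib points lie above all vehicle points for each of the 8 genes, and the hBMSC-CM everolimus points lie closest together in most panels.

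Among the enzymes of the lysosomal lumen the change was uneven. Of the proteases, CTSB (log2 change 1.25), CTSZ (1.11), CTSS (1.02) and TPP1 (1.02) rose. TPP1, a tripeptidyl peptidase, was at 119, 142 and 128 CPM under vehicle and at 255, 296 and 235 CPM under quizartinib, with an SE of 0.181 and an edgeR adjusted p of 3.16e-05. CTSD, CTSL and CTSA did not pass the test. Their log2 changes were 0.85 (edgeR adjusted p = 0.0660), 0.54 and 0.13. Of the glycan and lipid enzymes, the sialidase gene NEU1 rose by 1.24 and GAA, the acid alpha-glucosidase, by 0.80, whereas PSAP (1.01), HEXA (0.63), GLA and GUSB did not pass. GLA, an alpha-galactosidase, and GUSB, a beta-glucuronidase, had the lowest log2 changes of the network, both near 0. GUSB has 18 pseudogenes named after it and CTSL 6, so their counts are uncertain, and CTSD, HEXA and TPP1 share exon positions with a gene on their own strand.

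Among membrane and transport genes, NPC1, which exports cholesterol from the lysosome, rose by a log2 change of 1.30 (SE 0.247, edgeR adjusted p = 8.06e-05). Its levels were 10.1 CPM in all 3 vehicle cultures and 26.9, 26.0 and 21.6 CPM under quizartinib. NPC2, its soluble partner, rose by 0.71 (edgeR adjusted p = 0.0470), while LAMP1, LAMP2, MCOLN1 and CLN3 did not pass. LAMP1, the most abundant per kilobase in RPMI vehicle (CTSD was in every other condition), was at 339, 343 and 352 CPM under vehicle and at 397, 396 and 327 CPM under quizartinib, so these groups overlapped. Of the V-ATPase genes only ATP6V1H rose, by 0.47 (edgeR adjusted p = 0.0254), and ATP6AP1, ATP6V1A, ATP6V0D1 and ATP6V1B2 had log2 changes of 0.70, 0.61, 0.49 and 0.19 without passing. The calls of NPC2, ATP6V1H and GAA depended on single cultures, and without 1 culture of either group 14 to 17 of the 32 were called. With the hBMSC-CM everolimus libraries left out of the fit 18 were called, and with replicate 3 of every condition left out 20 were called, among which MAP1LC3B (edgeR adjusted p = 0.117) and NPC2 were not.

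In hBMSC-CM the same comparison gave a smaller set in the fit without a block. Of the 32 genes, 7 rose under quizartinib and 0 fell (edgeR, adjusted p under 0.05), where 12.3% of all genes were called and 5.46% were called higher. The median log2 change was 0.51 over the 32 and 0.0104 over all genes, and 32 of 32 estimates were above 0. Values did not overlap in 21 of the 32, all higher, against 16.9% of all genes. At an unadjusted p under 0.05, 15 differed, all higher, where 3436 of all 12939 genes differed in either direction. DESeq2 called 10 and limma voom 8. The genes called were GABARAPL1, ULK1 and WIPI1 of autophagy, the proteases TPP1 and CTSZ, the sialidase NEU1 and TFE3. CTSZ shares 6136 exon bases with NELFCD on the opposite strand. With the replicate number as a block within each fraction 20 were called, all higher, where 29.4% of all genes were called. The blocked count in RPMI was 25, so the media lay closer together than in the fit without a block.

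GABARAPL1 was at 9.05, 16.1 and 12.5 CPM in hBMSC-CM vehicle and at 34.5, 41.5 and 30.7 CPM in hBMSC-CM quizartinib, a log2 change of 1.51 (SE 0.290, edgeR adjusted p = 6.79e-04). NEU1 was at 42.1, 52.2 and 33.0 CPM under vehicle and at 86.5, 82.5 and 74.2 CPM under quizartinib, a log2 change of 0.94 (SE 0.287, edgeR adjusted p = 0.0279). TPP1 was at 182, 199 and 127 CPM under vehicle and at 331, 311 and 273 CPM under quizartinib, a log2 change of 0.85 (SE 0.180, edgeR adjusted p = 0.00182). In all 3 genes each treated culture was above each vehicle culture. TFE3 was at 44.4, 54.3 and 40.2 CPM and then at 66.7, 72.5 and 80.3 CPM, a log2 change of 0.66 (SE 0.209, edgeR adjusted p = 0.0331). TFEB did not pass, at 35.0, 48.5 and 58.4 CPM under vehicle and 61.6, 62.6 and 72.9 CPM with the drug, although its groups did not overlap (log2 change 0.47, SE 0.185, edgeR adjusted p = 0.0869).

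In the fit without a block, the number called in hBMSC-CM rested on single cultures. It was 2 without hBMSC-CM quizartinib replicate 2 or without vehicle replicate 1, 3 without quizartinib replicate 1 or vehicle replicate 3, 4 without quizartinib replicate 3, and 8 without vehicle replicate 2. With the everolimus libraries left out of the fit it was 5, with ULK1 and WIPI1 no longer called, and with replicate 3 of every condition left out it was 8, among which CTSZ, TFE3, ULK1 and WIPI1 were not and TFEB was.

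The difference between the media in the quizartinib effect was tested directly. No member passed (0 of 32, edgeR, where 1.96% of all genes were called), and DESeq2 and limma voom each called 0. Of all 12939 genes, 1293 had an unadjusted p under 0.05 in either direction, and 5 of the 32 did. The 5 were GABARAPL1 with a difference in log2 change of -1.34 (hBMSC-CM minus RPMI, SE 0.405, edgeR adjusted p = 0.0862), NPC1 with -0.86, TFEB with -0.78 (SE 0.261, edgeR adjusted p = 0.146), ULK1 with -0.65 and UVRAG with -0.55. All 5, which were picked by this p, had the smaller effect in hBMSC-CM, and 8 of the 32 estimates went the other way. TFE3 had a difference of -0.16 (SE 0.294, edgeR adjusted p = 0.980). When the replicate number was a block within each fraction, GABARAPL1, NPC1, TFEB and ULK1 were called, 4 of 32 with the smaller effect in hBMSC-CM, where 6.77% of all genes were called in either direction.

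hBMSC-CM and RPMI were then compared at the same treatment. Under vehicle, 0 of 32 passed (edgeR, where 1.51% of all genes were called), DESeq2 called 4 and limma voom 0. An unadjusted p under 0.05 was found for 10, all higher in hBMSC-CM, and for 970 of all 12939 genes in either direction. The median log2 difference was 0.28 over the 32 and -0.00522 over all genes. Values did not overlap in 14 of the 32, all higher in hBMSC-CM, against 7.97% of all genes. The smallest adjusted p, 0.0740, belonged to ULK1, which was at 33.7, 37.3 and 44.2 CPM in RPMI and at 52.6, 77.8 and 59.4 CPM in hBMSC-CM (log2 difference 0.72). GABARAPL1 was at 5.91 to 6.84 CPM in RPMI and 9.05 to 16.1 CPM in hBMSC-CM (log2 difference 0.97, edgeR adjusted p = 0.0985). Without hBMSC-CM vehicle replicate 1, 1 gene was called. TFEB had a difference of 0.49 (SE 0.185, edgeR adjusted p = 0.307) and TFE3 of 0.45 (SE 0.209, edgeR adjusted p = 0.574). Blocking on the replicate number within each fraction, CTSD, CTSL, CTSZ, GABARAPL1, GLA, MCOLN1, TFEB and ULK1 were called higher, 8 of 32, where 3.42% of all genes were called higher.

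Under quizartinib 1 gene was higher and 1 lower in hBMSC-CM than in RPMI, where 8.16% of all genes were called, 6.11% higher and 2.05% lower. Taken in either direction, the members' share was no larger than that of all genes. The calls of GLA and UVRAG are therefore results on single genes and not on the network. GLA was at 50.9, 56.1 and 57.0 CPM in RPMI and at 87.6, 82.5 and 84.1 CPM in hBMSC-CM, a log2 difference of 0.63 (SE 0.138, edgeR adjusted p = 0.00189). It overlaps RPL36A on the opposite strand by 557 exon bases, a ribosomal protein gene whose reads could have been counted with it. UVRAG was at 34.4, 40.6 and 42.9 CPM in RPMI and at 27.3, 27.2 and 27.6 CPM in hBMSC-CM, a log2 difference of -0.52 (SE 0.159, edgeR adjusted p = 0.0332). Neither gene's groups overlapped. GLA lost its call with no filter on low counts (edgeR adjusted p = 0.247). UVRAG lost its call, which left 1 gene called, without any 1 of the hBMSC-CM quizartinib cultures, without RPMI quizartinib replicate 2 or 3, and with replicate 3 of every condition left out. TFEB had a difference of -0.29 and TFE3 of 0.29 (SE 0.184 and 0.208), and neither passed. With the replicate block within each fraction 9 were called, 6 higher and 3 lower, where 17.6% of all genes were called.

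Monocyte markers differed between the media. Of the 8 that passed the filter, 5 were called higher in hBMSC-CM under vehicle and 6 under quizartinib, with 0 lower. Of all genes, 1.51% were called in either direction under vehicle and 6.11% were called higher under quizartinib. The summed level of the monocyte markers in input was 608 to 727 CPM in RPMI vehicle and 812 to 1190 CPM in hBMSC-CM vehicle. It was 635 to 670 CPM in RPMI quizartinib and 1240 to 1500 CPM in hBMSC-CM quizartinib. The macrophage markers MRC1 and MSR1 were at 0 in 39 and 40 of the 42 libraries. The part of these markers in the network's levels in each medium was not tested.

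Everolimus alone was compared with vehicle in hBMSC-CM. In input RNA 0 of 32 passed (edgeR, where 0.41% of all genes were called and 0.224% were called higher). DESeq2 and limma voom each called 1. An unadjusted p under 0.05 was found for 5 of the 32 and for 1123 of all 12939 genes. The median log2 change was 0.19 over the 32 and -0.0154 over all genes. ULK1 was at 107, 113 and 109 CPM, above the vehicle cultures at 52.6, 77.8 and 59.4 CPM (log2 change 0.79, SE 0.206, edgeR adjusted p = 0.0733). GABARAPL1 was at 24.9, 25.4 and 23.6 CPM against 9.05, 16.1 and 12.5 CPM (log2 change 0.97, SE 0.287, edgeR adjusted p = 0.133), and SQSTM1 at 226, 212 and 208 CPM against 95.1, 166 and 99.8 CPM (log2 change 0.84, edgeR adjusted p = 0.365). None of these groups overlapped, and in 12 of the 32 genes all everolimus values were higher, where 14.2% of all genes were. In 2 all were lower, where 13.5% of all genes were. These were ATP6V1H (log2 change -0.15) and CTSL, at 17.9, 15.2 and 17.0 CPM against 33.1, 27.3 and 21.1 CPM (log2 change -0.70, SE 0.304, edgeR adjusted p = 0.461). TFEB (log2 change 0.10, SE 0.184) and TFE3 (0.13, SE 0.208) did not pass, with edgeR adjusted p of 0.966 and 0.959. Without hBMSC-CM vehicle replicate 2, 1 gene was called. The fit assumes that the everolimus cultures vary like the other groups, although their spread was narrower. Their numbers also did not pair them with the vehicle cultures (correlations of deviations in input -0.0147, -0.000365 and -0.011). Whether they were grown or handled apart from the other cultures is not given in the labels. Such a difference cannot be told apart from the effect of the drug, in input or in polysome minus input.

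Adding everolimus to quizartinib changed few input levels. In hBMSC-CM 0 of 32 passed (edgeR, where 0.24% of all genes were called), with 0 called by DESeq2 and 0 by limma voom. Of all 12939 genes, 789 had an unadjusted p under 0.05, and 2 of the 32 did, which is near the same share. These 2 were GABARAPL1, at 53.7, 63.7 and 61.5 CPM under combo against 34.5, 41.5 and 30.7 CPM with quizartinib alone, without overlap (log2 change 0.74, SE 0.283, edgeR adjusted p = 0.504), and GLA (log2 change -0.33). Blocking on the replicate number, within each fraction or across both, GABARAPL1 was called, 1 of 32. With the block within each fraction 2.94% of all genes were called, which is near the members' share. TFEB had a log2 change of -0.20 (SE 0.184) and TFE3 of -0.11 (SE 0.208). In RPMI 0 of 32 passed (edgeR, where 0.00773% of all genes were called), with 0 at an unadjusted p under 0.05 and 0 by DESeq2 and by limma voom. TFEB was at 67.6, 81.0 and 91.3 CPM under RPMI combo and TFE3 at 53.2, 55.1 and 60.0 CPM, with log2 changes of -0.01 (SE 0.184) and -0.09 (SE 0.208) from quizartinib. Whether this added effect of everolimus differed by medium was tested as well, and 0 of 32 were called (edgeR, smallest adjusted p 1). No share of all genes is given for this test. Adding everolimus called few of all genes in either medium, so a difference between media is not shown to be absent.

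Both drugs against vehicle in hBMSC-CM gave 11 higher genes and 0 lower (edgeR), where 26.5% of all genes were called and 11.4% were called higher. The median log2 change was 0.53 over the 32 and 0.0212 over all genes, and DESeq2 called 13 and limma voom 11. An unadjusted p under 0.05 was found for 16 of the 32 and for 4757 of all 12939 genes. All autophagy genes but UVRAG rose. GABARAPL1 rose by a log2 change of 2.25 (SE 0.296, edgeR adjusted p = 6.07e-07). MAP1LC3B was at 76.7, 76.7 and 68.2 CPM under combo against 30.1, 33.6 and 22.1 CPM under vehicle (log2 change 1.37, SE 0.397, edgeR adjusted p = 0.00918). WIPI1 was at 15.4, 9.20 and 17.3 CPM against 5.75, 5.45 and 5.49 CPM (log2 change 1.33, SE 0.282, edgeR adjusted p = 5.47e-04).

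SQSTM1 (log2 change 1.32), NEU1 (1.06), CTSB (1.02), TPP1 (1.01), CTSS (0.93), ULK1 (0.83), NPC1 (0.79) and TFE3 (0.55, SE 0.209, edgeR adjusted p = 0.0487) made up the rest, and the call of TFE3 held in 9 of 17 settings. TFEB, at 51.9, 59.2 and 60.7 CPM under combo, overlapped the vehicle cultures (log2 change 0.28, SE 0.184, edgeR adjusted p = 0.289). A block for the replicate number within each fraction gave 20 of the 32 called, all higher, where 42.5% of all genes were called. Without hBMSC-CM vehicle replicate 3 the count was 7, with MAP1LC3B, NPC1, CTSB and TFE3 no longer called. It was 10 with the everolimus-only libraries left out of the fit and 15 with replicate 3 of every condition left out, among which MAP1LC3B (edgeR adjusted p = 0.153) and TFE3 were not. CTSB held its call in 11 of 17 settings. The quizartinib, everolimus and combo comparisons in hBMSC-CM share the same 3 vehicle cultures, and those in RPMI share theirs, so the comparisons within a medium are not independent of each other.

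The presence of CACGTG in the promoter and the change in message level were set side by side. Under quizartinib in RPMI, 2 of the 8 genes with the motif were called higher (GAA and NEU1), 11 of the 15 promoters without it belonged to genes called higher, and 4 of the 9 genes without a promoter entry were called. The median log2 changes of the 3 groups were 0.65, 1.11 and 0.63. In hBMSC-CM 1 of 8, 6 of 15 and 0 of 9 were called higher under quizartinib. Under combo these were 1 of 8, 8 of 15 and 2 of 9. Of all genes, 16.6% were called higher in the RPMI comparison, 5.46% under quizartinib in hBMSC-CM and 11.4% under combo. The 15 genes without the motif in this window include TFEB, TFE3, SQSTM1, GABARAPL1, MAP1LC3B, WIPI1, ULK1 and NPC1. These counts are a description, and a window of this length leaves the rest of each gene unread.

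In the heavy polysomes, most of the 32 messages held a larger share of the library than in input. In RPMI vehicle 22 were higher and 4 lower in heavy polysomes (edgeR), where 65.4% of all genes were called, 31.5% higher and 33.9% lower. In hBMSC-CM vehicle 23 were higher and 4 lower, where 63.6% of all genes were called, 29.6% higher and 34% lower. The median log2 difference of polysome from input was 1.16 and 1.11 over the 32, against -0.0643 and -0.112 over all genes. All 6 glycan and lipid enzymes and both transcription factors were higher in both media, as were 5 of 7 proteases and 3 of 5 V-ATPase genes. Scaling by library size alone moved the median of all genes by -0.548 and -0.52, and 17 of the 32 were then called higher and 7 lower in RPMI vehicle and 17 higher and 6 lower in hBMSC-CM vehicle. Under that scaling ATP6V1B2 in RPMI vehicle turned from 0.52 to -0.0469.

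Values per culture are log2 CPM in polysome minus log2 CPM in input, for replicates 1 to 3 of RPMI vehicle. ATP6V0D1, a subunit of the membrane part of the V-ATPase, had 2.22, 2.27 and 1.16 (edgeR log2 difference 1.97, SE 0.329, adjusted p = 5.10e-06). MCOLN1, the lysosomal calcium channel TRPML1, had 1.99, 1.81 and 1.27 (1.73, SE 0.308, edgeR adjusted p = 1.31e-05), and CTSD had 2.21, 1.77 and 0.98 (1.64, SE 0.366, edgeR adjusted p = 2.47e-04). All 3 genes were above 0 in each culture, and replicate 3 was lowest in each. TFEB had 2.00, 1.64 and 0.95 (1.55, SE 0.189, edgeR adjusted p = 3.90e-08) and TFE3 had 1.22, 1.30 and 0.92 (1.15, SE 0.211, edgeR adjusted p = 1.89e-05). In hBMSC-CM vehicle the largest differences were those of ATP6V0D1 (2.06, 2.35 and 1.53), SQSTM1 (2.11, 1.83 and 1.26) and PSAP (2.02, 1.79 and 1.07), with edgeR log2 differences of 2.07, 1.78 and 1.77.

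A minority lay on the other side. ATP6V1A, the catalytic subunit of the V-ATPase, had -0.37, -1.86 and -1.03 in RPMI vehicle (edgeR log2 difference -1.07, SE 0.297, adjusted p = 0.00213). TPP1 had -0.52, -1.22 and -1.11 (-0.94, SE 0.181, edgeR adjusted p = 4.05e-05), CTSS, a cysteine protease of antigen-presenting cells, had -0.74, -0.89 and -0.64 (-0.76, SE 0.241, edgeR adjusted p = 0.00635), and UVRAG had -0.73, -0.35 and -0.57 (-0.56, SE 0.161, edgeR adjusted p = 0.00302). These 4 were below 0 in every RPMI vehicle culture. ATP6V1A and CTSS lost their calls without RPMI vehicle replicate 2 (edgeR adjusted p = 0.0990 and 0.0529), and UVRAG lost its call with replicate 3 of every condition left out and with no filter on low counts. In hBMSC-CM vehicle the same 4 genes were called lower, UVRAG by most (-1.05, -1.11 and -0.46 per culture, edgeR log2 difference -0.87). ATP6V1A lost its call in hBMSC-CM vehicle with the everolimus libraries left out of the fit, as did CTSS, and with replicate 3 of every condition left out. The V-ATPase genes held both the highest and the lowest message of the network in RPMI vehicle.

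**Figure D3:**
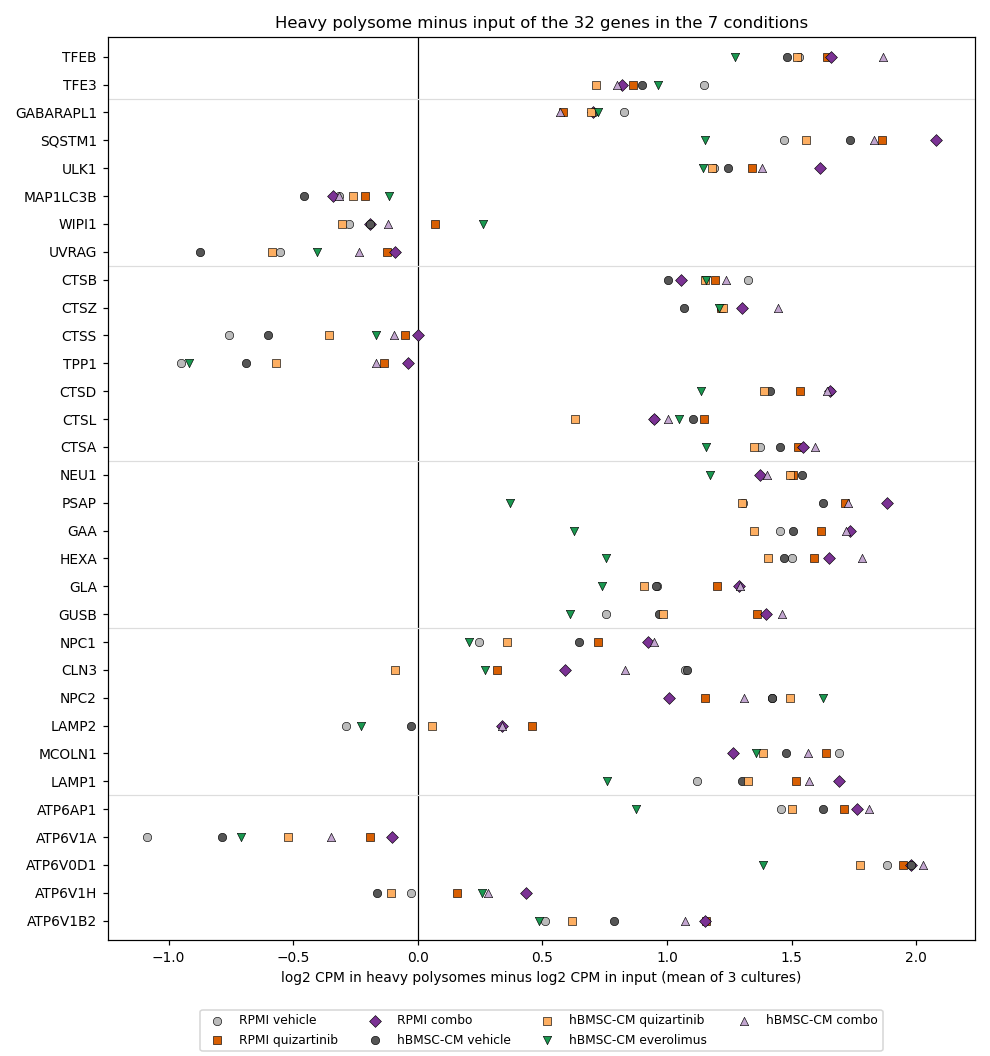
Log2 CPM in heavy polysomes minus log2 CPM in input for each of the 32 genes (rows, grouped by role) in the 7 conditions, as the mean of 3 cultures per symbol. Most genes lie to the right of 0 in all conditions, while the means of TPP1, ATP6V1A, MAP1LC3B and UVRAG lie left of 0 in all 7.

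The split between genes went along with the base composition of the transcripts. The 8 members with a mean below 0 in RPMI vehicle (ATP6V1A, ATP6V1H, CTSS, LAMP2, MAP1LC3B, TPP1, UVRAG and WIPI1) had a median GC content of 43.5%, and the 18 members with a mean above 1 had a median of 57.7%. Across the 32 genes Spearman's rho between GC content and polysome minus input was 0.72, and across 10809 genes with a coding transcript (83.5% of the genes tested) it was 0.769. Transcript length had a rho of -0.291 in the members and -0.386 in all genes. These points share libraries and base composition and are not independent, so the values are a description and carry no p. TPP1 stood off the trend, with 50.5% GC and a mean of -0.95. The part of GC content in the high polysome share of the network was not tested.

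**Figure D4:**
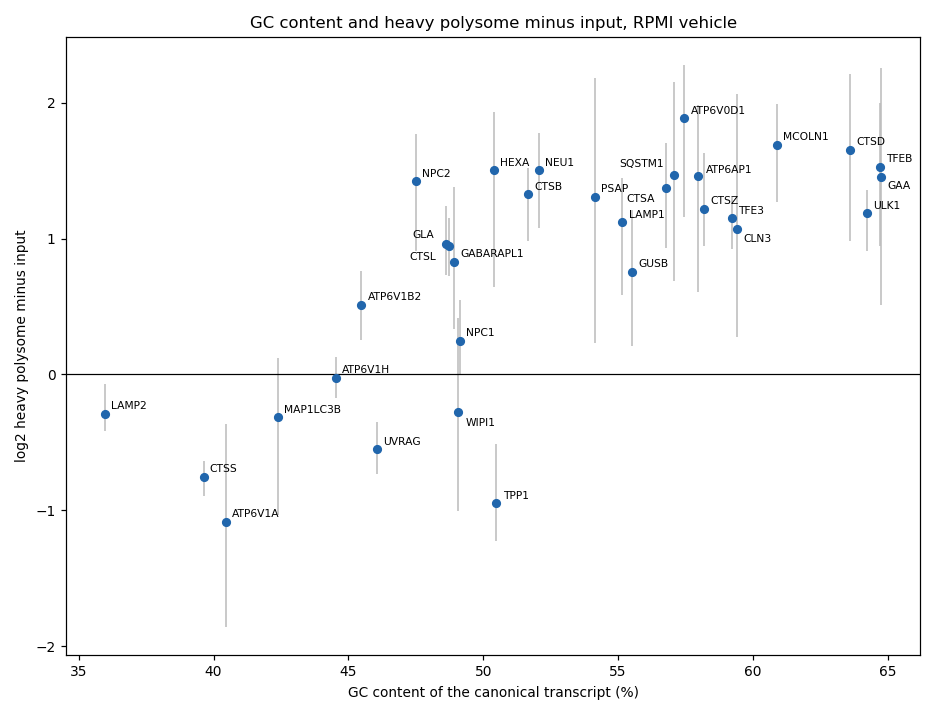
GC content (%) of the canonical transcript against log2 CPM in heavy polysomes minus input for the 32 genes in RPMI vehicle. Points are means of 3 cultures and grey bars run from the lowest to the highest culture. The 8 genes below 0 have GC contents up to 50.5%, and every gene with a higher GC content lies above 0.

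Replicate 3 had less of the network in heavy polysomes than the others in most conditions. The median polysome minus input of the 32 genes was 1.23, 1.30 and 0.625 in the 3 RPMI vehicle cultures, 1.36, 1.40 and 0.966 in RPMI quizartinib, 1.18, 1.25 and 0.775 in hBMSC-CM vehicle and 1.16, 1.10 and 0.624 in hBMSC-CM quizartinib. In RPMI vehicle 21 of the 32 genes were lowest in replicate 3, against 35.9% of all genes. In hBMSC-CM everolimus the medians lay close together at 0.672, 0.763 and 0.735. With replicate 3 of every condition left out, 25 members were called in RPMI vehicle and 26 in hBMSC-CM vehicle, and with the everolimus libraries left out 26 and 25.

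For the treatments, changes in polysome minus input were less precise than those in input, and a change that did not pass is not shown to be absent. In RPMI under quizartinib the SE of the log2 change ran from 0.195 (GLA) to 0.800 (CLN3). In that comparison 0 of 32 passed for polysome minus input (edgeR, where 1.55% of all genes were called), and DESeq2 and limma voom each called 0. At an unadjusted p under 0.05, 5 of the 32 differed, all higher, where 2014 of all 12939 genes differed in either direction. The members' share was thus near that of all genes. The median log2 change was 0.187 over the 32 and 0.151 over all genes, so the medians lay close together as well. The 5 members were ATP6V1A (log2 change 0.88), TPP1 (0.80, SE 0.254, edgeR adjusted p = 0.109), CTSS (0.74), ATP6V1B2 (0.63) and GUSB (0.57). TPP1 had -0.52, -1.22 and -1.11 per culture under vehicle and 0.01, -0.41 and -0.01 under quizartinib, so the groups did not overlap. ATP6V1A had -0.37, -1.86 and -1.03 under vehicle and 0.07, -1.03 and 0.38 under quizartinib, higher in each pair of cultures with the same number, though the groups overlapped. With the replicate number as a block within each fraction TPP1, ATP6V1A, ATP6V1B2, GUSB and LAMP2 were called higher, 5 of 32, where 11.7% of all genes were called and 7.76% were called higher. RLE factors moved the median of all genes by -0.145 and library size alone by 0.228 in this comparison, and TFEB (log2 change 0.09, SE 0.261, -0.05 with RLE factors) and TFE3 (-0.24, SE 0.294) did not pass.

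In hBMSC-CM 0 of 32 passed for quizartinib against vehicle in polysome minus input (edgeR, where 0% of all genes were called), with 0 at an unadjusted p under 0.05. The same held for hBMSC-CM against RPMI under vehicle, with 0 of 32 called, 0% of all genes called and 0 at an unadjusted p under 0.05. Under quizartinib hBMSC-CM against RPMI gave 0 of 32 (0% of all genes) with 1 at an unadjusted p under 0.05, ATP6V1B2 (log2 difference -0.53). Of all 12939 genes, 450 had such a p. Combo against quizartinib gave 0 of 32 in hBMSC-CM and in RPMI (0% of all genes in either) with 0 at an unadjusted p under 0.05. Combo against vehicle in hBMSC-CM gave 0 of 32 (0.0232% of all genes). UVRAG (log2 change 0.64) and TPP1 (0.55) had an unadjusted p under 0.05, as had 561 of all 12939 genes. The difference between media in the quizartinib effect gave 0 of 32 (0% of all genes). There ATP6V1B2 (-0.82) had such a p, as had 624 of all genes. DESeq2 and limma voom called 0 in each of these comparisons. TFEB and TFE3 passed in none of them, and their log2 changes lay between -0.25 and 0.40.

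Everolimus alone gave 0 of 32 in polysome minus input (edgeR, where 0% of all genes were called), with 0 by DESeq2 and by limma voom. Of all 12939 genes, 573 had an unadjusted p under 0.05, and 3 of the 32 members did. Of these 3 members HEXA, a subunit of beta-hexosaminidase, had a log2 change of -0.81 (SE 0.372) and GAA of -0.96 (SE 0.407), and UVRAG had 0.46. The lowest log2 change was that of PSAP, at -1.39 (SE 0.710, edgeR adjusted p = 1.00), which missed the unadjusted threshold. PSAP was at 2.02, 1.79 and 1.07 per culture under vehicle and at 0.42, 0.38 and 0.30 under everolimus, without overlap. GAA was at 1.97, 1.71 and 0.85 per culture under hBMSC-CM vehicle and at 0.58, 0.71 and 0.59 under everolimus, and HEXA at 1.75, 1.92 and 0.74 and then at 0.75, 0.74 and 0.77. The groups of GAA did not overlap, and those of HEXA overlapped through vehicle replicate 3. Same-numbered input and polysome libraries of the everolimus cultures did not deviate together over all genes (correlations 0.0146, -0.0196 and 0.00126). Their values per culture therefore join libraries by number alone. Of the 32 genes 7 were lower without overlap and 2 higher, where 8.89% and 9.19% of all genes were. With replicate 3 of every condition left out, 3 of 32 were called lower, GAA (log2 change -1.23), HEXA (-1.13) and ATP6AP1 (-0.98), where 0.363% of all genes were called. TFEB had a log2 change of -0.19 (SE 0.260) and TFE3 of 0.06 (SE 0.294). The median polysome minus input of the 32 genes was lowest in this condition, at 0.748, and highest in hBMSC-CM combo, at 1.3.

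A wider list of 107 other lysosome, autophagy and TFEB-regulating genes, of which 100 passed the filter on low counts, moved in input RNA in both directions. Under quizartinib in RPMI 31 rose and 4 fell, with a median log2 change of 0.47, where 34.6% of all genes were called, 16.6% higher and 18% lower. In hBMSC-CM 11 rose and 1 fell under quizartinib, where 12.3% of all genes were called, 5.46% higher and 6.84% lower. Under combo 25 rose and 5 fell, where 26.5% were called, 11.4% higher and 15.1% lower. The share called in either direction was thus near that of all genes in each comparison, and most of the calls were rises. The largest rises in RPMI were in the fucosidase gene FUCA1, from 19.8, 31.3 and 20.8 to 134, 151 and 121 CPM (log2 change 2.50, edgeR adjusted p = 1.49e-07), and in CTSF, a cysteine protease (2.18). Among autophagy genes BNIP3L, a receptor for the removal of mitochondria, rose by 1.75 and WDR45, a relative of WIPI1, by 1.53. FNIP1, a partner of folliculin in the Rag pathway that controls TFEB, rose by 1.02 and the V-ATPase subunit gene ATP6V0A1 by 0.96.

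LAPTM4B, a lysosomal membrane protein gene, fell from 73.4, 60.6 and 58.3 to 21.7, 18.5 and 14.9 CPM (log2 change -1.80, SE 0.190, edgeR adjusted p = 2.71e-09), and TMEM192 (-1.02), CTSC (-0.55) and DPP7 (-0.52) fell too. In hBMSC-CM LAPTM4B fell from 70.4, 57.6 and 59.2 to 38.9, 37.1 and 27.4 CPM (log2 change -0.86). It was the only gene of the 100 for which the quizartinib effect differed between media (difference in log2 change 0.95, hBMSC-CM minus RPMI, edgeR adjusted p = 0.0458), where 1.96% of all genes were called. No fall of this size was seen among the 32 members, of which 30 had estimates above 0 in RPMI. In heavy polysomes 41 of the 100 were higher and 28 lower in each medium, where 65.4% of all genes were called in RPMI vehicle and 63.6% in hBMSC-CM vehicle, with median log2 differences of 0.282 in RPMI vehicle and 0.277 in hBMSC-CM vehicle.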

How the data were processed

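The deposited values were raw counts per gene, one column per library, which the authors made from poly(A)-selected libraries (Universal Plus mRNA-seq) read as pairs on a NovaSeq, trimmed with BBDuk and aligned to hg38 with STAR 2.6.0a. Counts were not normalized or filtered, and whether counting used strand is not given in the sources used here. Column names gave the sample of each of the 42 columns. Rows sharing a gene name were added up, and 12939 genes whose mean over all libraries reached 1 count and 1 CPM were kept.

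All 42 libraries entered 1 edgeR 4.0.16 quasi-likelihood fit (R 4.3.3, robust, TMM factors, 14 group means, no block), after the study's linear model, and Benjamini-Hochberg adjustment ran over all genes. Polysome minus input is the interaction with the fraction. Levels are TMM-scaled CPM, and log2 CPM used a prior count of 2. The fit was tested on simulated counts. Alternatives were limma voom (3.58.1), DESeq2 1.42.0, RLE factors, library size only, 2 other filters, only the groups compared, replicate blocks, and each culture left out. Leaving out the everolimus-only libraries, or replicate 3 of every condition, was chosen after the data were seen. Transcript length, GC content and overlaps came from GENCODE v44 (GRCh38), matched for all 32 genes, of which 16 overlap exons on the opposite strand and 6 on their own.

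Same-numbered cultures deviated together. The correlation of their deviations from the group means was above 0.1 in 21 of 24 pairs in input and 21 of 24 in polysome libraries, all but those with everolimus alone. The numbers were therefore taken to pair the cultures, and blocked values are printed where they change a call. Between the input and polysome libraries of the same number and condition, the correlation was above 0.1 in 15 of 21. No fit held a term for each culture. The p-values of polysome against input and of polysome minus input therefore leave this pairing out.

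Members, comparison lists and tests were chosen with earlier results of these data known. All 32 genes could be named, with full statistics for at most the 3 largest called changes of each sign per comparison and for TFEB and TFE3, and at most 2 of each sign for each comparison list. Genes named for an unadjusted p, or for a change under an alternative, were added after their values were seen.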

Additional observations from a re-analysis of the deposited data

How the results depend on the processing

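Of the counts of members called that were recomputed under other settings, 299 stayed within 1.5 times the reported count and 45 did not. The 299 include comparisons in which no member was called in either fit. The tally therefore says little about how steady the other counts are. Limits on the report are few cultures per condition, counting whose use of strand is not given, no spike-in, and everolimus cultures with a smaller spread than the rest. The causes of the shifts that follow were not tested.

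With the replicate number as a block (first value) or as a block within each fraction (second value), the members called in input were 15 and 20 for quizartinib in hBMSC-CM (all genes 20.7% and 29.4%), 17 and 20 for combo against vehicle in hBMSC-CM (34.5% and 42.5%), 1 and 1 for adding everolimus to quizartinib in hBMSC-CM (1.19% and 2.94%), 3 and 4 for everolimus (1.89% and 5.22%), 6 and 9 for hBMSC-CM against RPMI under quizartinib (11.9% and 17.6%), 4 and 8 under vehicle (2.88% and 4.52%), and 1 and 4 for the effect of quizartinib compared between media (3.52% and 6.77%). In polysome minus input they were 1 and 5 for quizartinib in RPMI (3.79% and 11.7%). For everolimus (GABARAPL1, SQSTM1 and ULK1, with TPP1 in the second) the numbers did not pair the cultures. In heavy polysomes against input the block within each fraction added LAMP2, MAP1LC3B and NPC1 in RPMI vehicle and MAP1LC3B in hBMSC-CM vehicle, where ATP6V1A lost its call, and the shared block added CLN3 in RPMI vehicle.

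The counts that follow are given without the share of all genes. Everolimus against vehicle in input gave 1 with DESeq2, 1 with limma voom, 1 with library size only, 1 with a 10 CPM minimum and 1 with no filter. hBMSC-CM against RPMI under vehicle gave 4 with DESeq2, 1 with library size only, 2 with a 10 CPM minimum and 2 with no filter. Under quizartinib it gave 1 with library size only, 0 with no filter and 1 with replicate 3 of every condition left out. The difference between media in the quizartinib effect gave 1 with no filter and 1 with only the groups compared. For polysome minus input, quizartinib in RPMI gave 1 with library size only, and everolimus gave 3 with replicate 3 left out. Leaving out 1 culture gave 2 to 8 for quizartinib in hBMSC-CM, 7 to 13 for combo against vehicle, 0 to 1 for everolimus, 1 to 2 for hBMSC-CM against RPMI under quizartinib and 0 to 1 under vehicle.

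TFEB and TFE3 changed sign where their log2 change was near 0 and was not called. TFEB, combo against quizartinib in RPMI input, became 0.00762 with DESeq2, 0.00762 with RLE factors, 0.01219 with library size only, 0.01014 with a 10 CPM minimum, 0.01163 with only the groups compared, 0.002172 without the everolimus libraries and 0.003675 without replicate 3. In polysome minus input that comparison gave -0.01366 (DESeq2), -0.01371 (RLE), -0.007405 (only the groups) and -0.03441 (without replicate 3). Polysome minus input of TFEB under quizartinib in RPMI became -0.05021 (DESeq2), -0.04963 (RLE), -0.09128 (without everolimus), -0.006691 (no filter), -0.1265 (only the groups) and -0.164 (without replicate 3). In hBMSC-CM it became -0.02923 (DESeq2), -0.02952 (RLE), -0.04117 (without everolimus), -0.03888 (only the groups) and -0.1181 (without replicate 3). The difference between media became 0.02098 (DESeq2), 0.02011 (RLE), 0.05011 (without everolimus), 0.03225 (no filter) and 0.04599 (without replicate 3). TFEB became 0.008238 for everolimus with library size only, and 0.0307 for hBMSC-CM against RPMI under quizartinib without replicate 3. TFE3 in polysome minus input became 0.00551 (combo against quizartinib, RPMI), 0.01448 (combo against vehicle) and -0.04789 (difference between media) with library size only, and -0.07835 (combo against quizartinib, hBMSC-CM) and -0.0809 (everolimus) without replicate 3.

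Leaving out 1 culture, the values of TFE3 in polysome minus input ran from -0.3642 to 0.1796 (combo against quizartinib, RPMI), -0.1718 to 0.2439 (the same, hBMSC-CM), -0.2631 to 0.06419 (combo against vehicle), -0.05351 to 0.2169 (everolimus), -0.42 to 0.06866 (hBMSC-CM against RPMI, quizartinib), -0.1801 to 0.3153 (difference between media) and -0.3365 to 0.07929 (quizartinib, hBMSC-CM). Those of TFEB ran from -0.195 to 0.1222 (combo against quizartinib, RPMI), -0.4872 to 0.0171 (everolimus), -0.2456 to 0.1079 (hBMSC-CM against RPMI, quizartinib), -0.3435 to 0.2097 (the same, vehicle), -0.2749 to 0.2399 (difference between media), -0.1701 to 0.3072 (quizartinib, RPMI) and -0.2549 to 0.2813 (quizartinib, hBMSC-CM). In input TFEB ran from -0.1112 to 0.12 (combo against quizartinib, RPMI) and -0.08066 to 0.2964 (everolimus).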
